A study of Homo sapiens and Mus musculus with 7 samples.

Results

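Hemin was compared with no hemin in HEL cells, a human erythroleukaemia line, in which KAP1 had been knocked down. The comparison took 1 RNA-seq library with hemin against 1 without, 2 of the 7 samples of the series, and covered all 14919 genes of the deposited table, with 1 transcript for each, the one whose mean value was highest. Of these, 10828 reached 5 scaled TPM in the higher of the pair of libraries and could be counted; that unit is reads per transcript length, scaled between libraries to a mean sum of 1000000. The group with hemin was KAP1 knockdown HEL cells kept at 50 µM hemin for 5 days, and the other group was the same knockdown cells without hemin. HEL cells labelled KAP1 WT, with and without the same treatment, gave 1 library each and are called control cells below. Their columns are headed Ctrl, and they were matched to these labels because KAP1 WT is the one other genotype among the HEL samples. The remaining 3 samples are ChIP-seq of KAP1, IgG and total input in mouse erythroid cells and are not used here. The method of the knockdown, and the clones or cultures behind it, were not given in the sources used here.

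Hemin is the oxidised, iron-bearing form of haem, the prosthetic group of haemoglobin. In red cell precursors haem releases the repressor BACH1 from antioxidant response elements, which lets NRF2 and small MAF proteins drive HMOX1, the ferritin genes and glutathione enzymes. Haem also lowers ALAS1, the first enzyme of its own synthesis in most cells, and supports globin production. HEL cells carry features of both red cells and megakaryocytes, and hemin is used to push such lines towards the red cell side. KAP1, encoded by TRIM28, is a corepressor brought to DNA by KRAB zinc finger proteins.

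With hemin, HMOX1 was 20.5-fold higher and the fetal globin gene HBG2 4.53-fold higher in knockdown cells, while UNC5B, a netrin receptor gene, was 14.4-fold lower. Several platelet genes, PF4 among them, were higher with hemin in knockdown cells and lower with hemin in control cells. With 1 library a side there is no replicate check, so none of these differences carries a p-value. The intervals given are exact conditional binomial intervals at 95% on the recovered reads. They cover counting error only: no molecular identifiers were used, so reads need not be separate molecules, and variation between cultures is not in them.

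Antioxidant response elements are the sites through which haem is known to act on its detoxification genes. For that reason 3 of the upstream regions that hold their letters are shown first. The search took the 250 bases before the start of 8707 of the 10828 genes, from RefSeq on GRCh38.p14, for the letters TGACNNNGC on both strands, which can overlap the AP-1 letters TGACTCA. Of 21 genes of the NRF2 and BACH1 target list with such a region, 4 held the letters: GCLM, TXNRD1, PGD and ABCC4. No region was matched for HMOX1, HBG1, HBG2 or UNC5B, so these genes were not searched. Outside the list only a few genes picked by name were looked at singly. Of these MLLT11, one of the protein-coding genes furthest up, held the letters. The 3 regions below, at chr1:93909431-93909680 on the minus strand for GCLM, chr1:151060147-151060396 on the plus strand for MLLT11 and chr12:104215529-104215778 on the plus strand for TXNRD1, run 5′ to 3′ towards the start, with the match in capitals.
GCLM: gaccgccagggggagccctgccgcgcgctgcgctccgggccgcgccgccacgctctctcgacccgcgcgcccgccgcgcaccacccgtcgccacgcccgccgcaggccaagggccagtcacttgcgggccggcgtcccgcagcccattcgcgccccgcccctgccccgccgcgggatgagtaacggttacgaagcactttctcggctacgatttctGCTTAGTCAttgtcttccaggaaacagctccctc
MLLT11: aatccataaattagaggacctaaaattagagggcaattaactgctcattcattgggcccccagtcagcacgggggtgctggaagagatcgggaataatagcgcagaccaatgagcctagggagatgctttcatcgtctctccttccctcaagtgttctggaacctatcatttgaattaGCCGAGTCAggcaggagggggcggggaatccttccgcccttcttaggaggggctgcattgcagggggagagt
TXNRD1: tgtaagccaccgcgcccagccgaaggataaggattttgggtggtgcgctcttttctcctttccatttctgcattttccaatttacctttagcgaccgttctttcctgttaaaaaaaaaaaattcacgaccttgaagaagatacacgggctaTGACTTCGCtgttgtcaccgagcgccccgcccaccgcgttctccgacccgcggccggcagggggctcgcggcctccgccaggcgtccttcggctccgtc
The match lay 34 to 26 bases before the start in GCLM and 72 to 64 in MLLT11, both on the reverse strand, and 99 to 91 in TXNRD1 on the forward strand.

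The same letters stood in 12.4% of all 8707 regions, in 23 of 175 genes at least 2-fold higher (13.1%) and in 12 of 125 at least 2-fold lower (9.6%). The GATA letters AGATAA, read on both strands, were in 4.50% of all regions. They were in 15 of the 175 higher genes (8.57%) and in 5 of the 125 lower genes (4%). Other letters were also more frequent in the higher genes than in all regions. TATAAA had 8.57% beside 5.18%, the AP-1 letters 4.57% beside 2.16% and CCACACCC 4.57% beside 2.63%. CCAAT had 37.1% beside 36.04%, while TGACGTCA (2.86%) and TGATGCAA (0%) were less frequent than in all regions. Of the 175 higher genes, 68 lay in the lowest of 4 groups by GC content of these regions. The part of base content in these shares was not tested. Among the 3 genes shown, the log2 ratios with hemin were 1.36 for GCLM, which encodes a subunit of the enzyme that limits glutathione synthesis, 2.17 for MLLT11 and 0.31 for TXNRD1, the cytosolic thioredoxin reductase gene. The list members with a match that are not shown, PGD and ABCC4, had -0.24 and 0.51. A match is a stretch of letters, not a bound site.

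The libraries differed in depth, and the deposited RPKM values still carried that difference. The knockdown library with hemin held 42105288 recovered reads and the one without 24025542, a ratio of 1.75, and the control libraries held 37961681 and 34222012. All ratios were therefore taken after scaling. TRIM28 stood at 317 scaled TPM in knockdown cells without hemin and 190 with hemin, against 421 and 400 in control cells. The knockdown libraries were thus the 2 lowest, and within them the one with hemin was lower, by a log2 ratio of -0.74. TRIM28 is 1 of 5 rows deposited as whole numbers, whose reads could not be recovered, so it has no counting interval and is a weak check of the labels. Of the defining markers, all 7 erythroid and all 4 megakaryocyte genes reached the floor in knockdown cells, and the erythroid ones summed to 13897 scaled TPM without and 59385 with hemin. CD8A for T cells was at most 0.196 scaled TPM there and EPCAM for epithelium at most 0.0984, and the B cell gene CD79A was at 8.73 without and 3.33 with hemin. In bulk RNA, more cells of a type and more RNA per cell cannot be told apart.

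Across the 10828 genes, 250 were at least 2-fold higher with hemin (2.31%) and 185 at least 2-fold lower (1.71%). Scaling to equal medians gave 222 and 218 instead, so the balance of directions depends on the scaling. At a 1.5-fold difference, the limit used for members of gene lists below, 12.1% of genes were higher and 10.7% lower, and the median log2 ratio was 0.00. In control cells the same limits gave 2.6% and 2.59% at 2-fold and 9.24% and 8.21% at 1.5-fold, of 10799 genes. Counts of list members below are to be read beside these 1.5-fold shares, which differ between the 2 kinds of cell. Of the knockdown genes past 2-fold, 140 higher and 101 lower had a counting interval wholly beyond it. The rest could lie inside it from counting error alone.

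**Figure D1:**
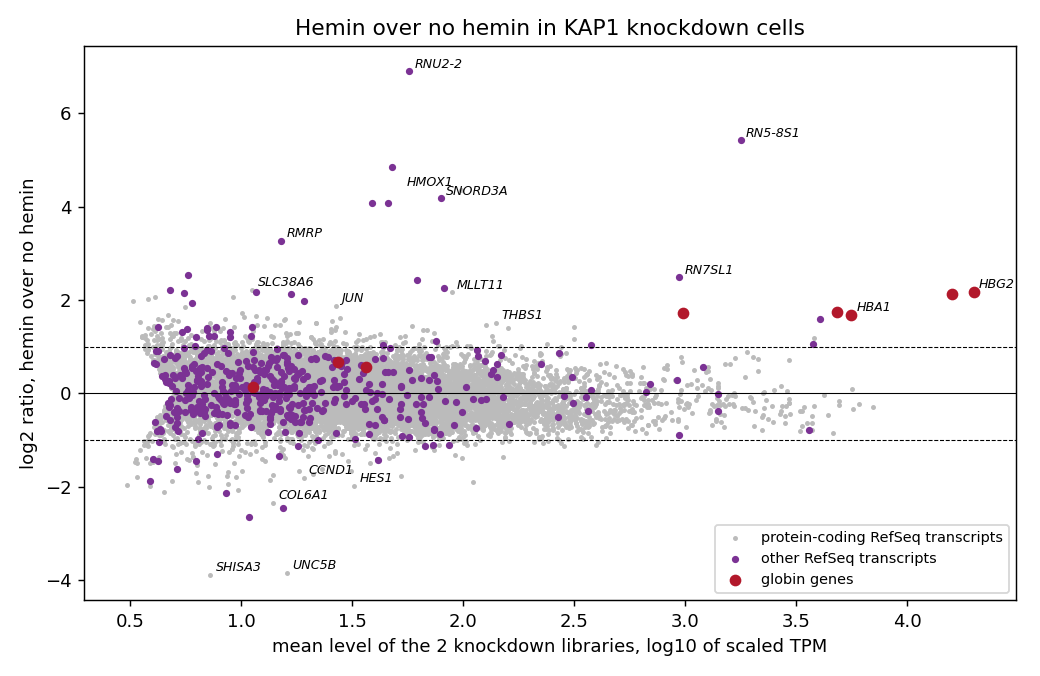
The log2 ratio of hemin over no hemin in KAP1 knockdown cells is plotted against the mean level of both knockdown libraries (log10 of scaled TPM), 1 point per gene at the floor, with dashed lines at a 2-fold difference. Globin genes sit at the right with HBG2 at 2.18, HMOX1 stands at 4.36, UNC5B and SHISA3 lie below -3, and the highest points are transcripts that are not protein-coding.

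HMOX1 (NM_002133) encodes haem oxygenase 1, which breaks haem down to biliverdin, carbon monoxide and iron. It was at 8.64 scaled TPM without hemin and 187 with hemin in knockdown cells, a log2 ratio of 4.36 with a counting interval of 4.21 to 4.67. In control cells it went from 5.50 to 371, a log2 ratio of 5.95. It was the protein-coding gene furthest up in knockdown cells, and the levels without and with hemin lay far apart in both kinds of cell. The level reached with hemin was lower in the knockdown library than in the control library.

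On the list of NRF2 and BACH1 targets, which holds HMOX1, none was lower with hemin by 1.5-fold. At the floor were 28, of which 11 were at least 1.5-fold higher (39.3%, beside 12.1% of all genes) and 0 lower, with a median log2 ratio of 0.41; in control cells 14 of 28 were higher and 0 lower, with a median of 0.53. GCLM was at 38.3 and 98.9 scaled TPM without and with hemin. FTL, the ferritin light chain that stores iron, was at 2313 and 5277, a log2 ratio of 1.19, and FTH1, the heavy chain, at 1335 and 2464, a log2 ratio of 0.88. BLVRB, a biliverdin reductase gene, had 1.02 and NQO1, a quinone reductase gene, 0.98. These 5 genes also had positive log2 ratios in control cells, between 0.76 and 1.57. SLC7A11, the cystine transporter gene, was at 9.61 and 19.5 scaled TPM, a log2 ratio of 0.99, against -0.01 in control cells. The gene of the factor itself, NFE2L2, had 0.67 and that of its competitor BACH1 0.79. Members of the pentose phosphate branch, which supplies NADPH, included PGD with a log2 ratio of -0.24 and TKT with -0.22.

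**Figure D2:**
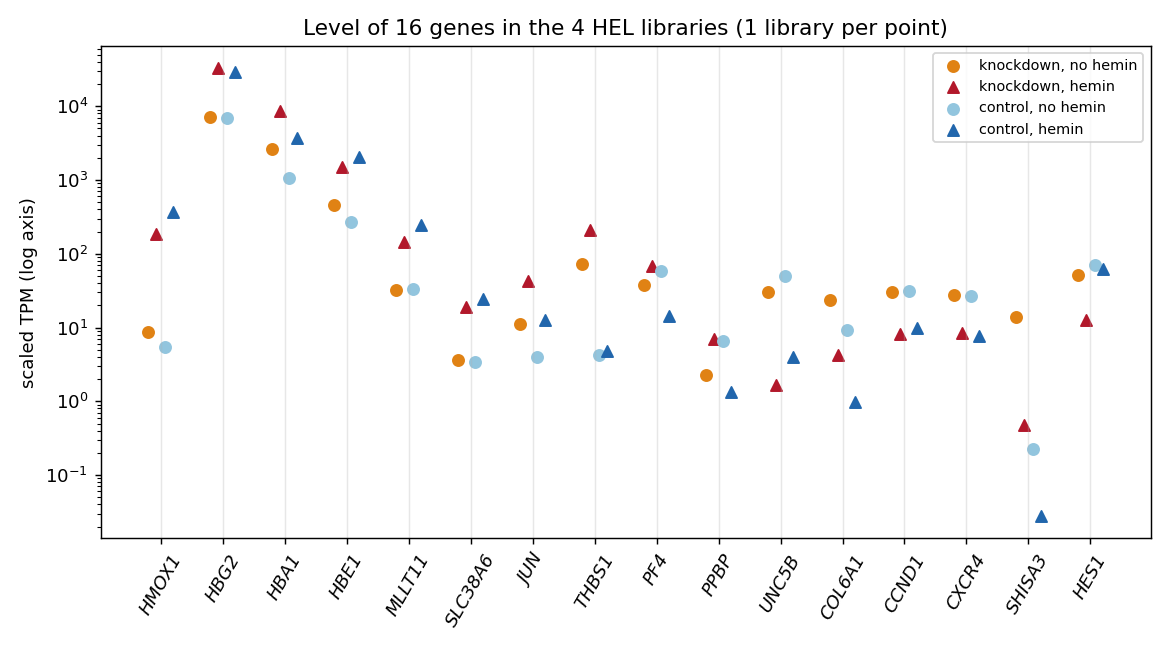
Level of 16 genes in the 4 HEL libraries, in scaled TPM on a log axis, with circles for no hemin and triangles for hemin, 1 library per point and so no error bar. HMOX1, HBG2, HBA1, HBE1, MLLT11, SLC38A6 and JUN were higher with hemin in both kinds of cell, UNC5B, COL6A1, CCND1 and CXCR4 lower, and PF4 and PPBP went opposite ways.

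Most globin genes were higher with hemin. Their summed level was 18537 scaled TPM without hemin and 76188 with hemin in knockdown cells, and 14926 and 60523 in control cells. At least 1.5-fold higher were 6 of the 8 globin genes at the floor, and 0 were lower, with a median log2 ratio of 1.70 beside 0.00 for all genes. The fetal gamma globin genes made up most of it: HBG2 (NM_000184) was at 7216 and 32665 scaled TPM, a log2 ratio of 2.18, and HBG1 at 5916 and 25947, a log2 ratio of 2.13. HBG1 and HBG2 are near-identical, as are HBA1 and HBA2, and how the authors' counting divided reads between such copies is uncertain.

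The alpha globin genes stood at 2662 and 8526 scaled TPM for HBA1 and at 2225 and 7461 for HBA2, log2 ratios of 1.68 and 1.75. The embryonic gene HBE1 was at 452 without and 1497 with hemin, a log2 ratio of 1.73, while in control cells it went from 273 to 2027, a log2 ratio of 2.89. Another embryonic gene, HBZ, was low in knockdown cells, at 4.91 and 2.67 scaled TPM, just under the floor, whereas in control cells it was at 6.17 without and 31.2 with hemin. The adult gene HBB was at 21.1 and 33.7 scaled TPM in knockdown cells, a log2 ratio of 0.66, and at 52.7 and 25.7 in control cells, a log2 ratio of -1.02. Of the low-level globins, HBQ1 had 0.56 and HBD 0.13, the latter with a counting interval from -0.22 to 0.50 that holds a ratio of 1. Alpha-like globins together went from 4922 to 16034 scaled TPM and beta-like globins from 13616 to 60155.

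Enzymes of haem synthesis did not follow the globins. None of 9 was at least 1.5-fold higher and 1 was lower, with a median log2 ratio of -0.13. That gene was ALAS1, at 126 scaled TPM without and 69.3 with hemin, a log2 ratio of -0.86; in control cells it stood at 373 and 109, a log2 ratio of -1.77. The erythroid form of the same enzyme, ALAS2, was at 32.5 and 47.9, a log2 ratio of 0.55, and FECH, which inserts iron as the last step, at 20.8 and 29.5, a log2 ratio of 0.50. Of the steps between them, ALAD had -0.37, UROS 0.07, UROD -0.05, CPOX -0.13 and PPOX -0.14. Control cells had 2 of 9 enzymes at least 1.5-fold higher, and a median of 0.28.

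Haem and iron handling showed a mixed picture. Of 10 haem and porphyrin transport genes 3 were higher and 0 lower, with a median log2 ratio of 0.40. SLCO2B1, an organic anion transporter gene placed in that list, was at 3.25 and 15.1 scaled TPM, a log2 ratio of 2.06, and SLC48A1, the transporter that takes haem out of lysosomes, was at 34.8 and 66.3, a log2 ratio of 0.92. Of 20 genes of iron uptake and storage 4 were higher and 2 lower, with a median of -0.01. The ferritin genes were the 2 furthest up. TFRC, the transferrin receptor that brings iron in, was at 332 without and 202 with hemin, a log2 ratio of -0.71, and STEAP3, the endosomal iron reductase gene, had -0.77. SLC25A37, the mitochondrial iron importer gene, had 0.24 in knockdown cells and 1.40 in control cells.

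Among other red cell genes, single members were higher while the list medians lay near that of all genes. The membrane skeleton list had 4 of 16 higher and 0 lower, with a median log2 ratio of 0.02. EPB42, protein 4.2, was at 21.9 and 49.1 scaled TPM, a log2 ratio of 1.15. Of 20 blood group genes 6 were higher and 2 lower, with a median of 0.16. CD55, a complement inhibitor, had a log2 ratio of 0.99, and BSG, basigin, had -0.79.

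Erythroid transcription factors had a median log2 ratio of -0.29, with 1 of 20 at least 1.5-fold higher and 3 lower; in control cells the median was 0.17. The higher one was BACH1. TCF3, a partner of TAL1, went from 57.3 to 31.2 scaled TPM, a log2 ratio of -0.87, and ZFPM1, the GATA1 cofactor FOG1, from 80.8 to 44.9, a log2 ratio of -0.84. ZBTB7A, a repressor of fetal globin, had -0.69. The central factors lay closer to 0: GATA1 had -0.34, KLF1 -0.02 and TAL1 0.03, while KLF1 had 0.74 in control cells.

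Megakaryocyte and platelet genes had a median near 0 with hemin in knockdown cells and a lower one in control cells, a difference that was not tested. In knockdown cells 8 of 35 were at least 1.5-fold higher with hemin (22.9%, beside 12.1% of all genes) and 3 lower (8.57%, beside 10.7%). Their median log2 ratio was 0.07. In control cells 2 of 33 were higher and 15 lower, with a median of -0.46, beside 9.24% and 8.21% of all genes. PF4 (NM_002619), platelet factor 4, stood at 37.9 scaled TPM without and 68.8 with hemin in knockdown cells, a log2 ratio of 0.85 with a counting interval of 0.63 to 1.09. In control cells it stood at 58.3 and 14.5, a log2 ratio of -1.97. Without hemin the knockdown library was thus the lower of the pair, and with hemin the higher. The neighbouring chemokine gene PPBP was at 2.28 and 6.95 scaled TPM in knockdown cells and at 6.52 and 1.34 in control cells, log2 ratios of 1.42 and -1.93. MMRN1, a platelet granule protein gene, was at 40.2 and 67.3 in knockdown cells and at 71.8 and 32.4 in control cells, log2 ratios of 0.74 and -1.14. With 1 library per group this difference between the 2 kinds of cell was not tested.

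Not every gene of the platelet list behaved like PF4. THBS1, thrombospondin 1, was at 72.6 and 209 scaled TPM in knockdown cells, a log2 ratio of 1.52, and at only 4.28 and 4.83 in control cells. SRGN, the granule proteoglycan serglycin, and CD36, a thrombospondin receptor, were higher with hemin in both kinds of cell, with log2 ratios of 1.46 and 1.29 in knockdown cells and 1.10 and 0.97 in control cells. ITGA2B, the platelet integrin chain and the most abundant megakaryocyte marker, was at 1107 and 874 in knockdown cells, a log2 ratio of -0.34, against 1989 and 891 in control cells, a log2 ratio of -1.16. GP1BA had 0.04 in knockdown cells and -1.33 in control cells, and GP6 -0.40 and -1.83. The 4 defining megakaryocyte markers together summed to 1501 scaled TPM without and 1215 with hemin in knockdown cells, and to 2449 and 1207 in control cells. Their sums with hemin were thus close, and those without hemin were not.

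**Figure D3:**
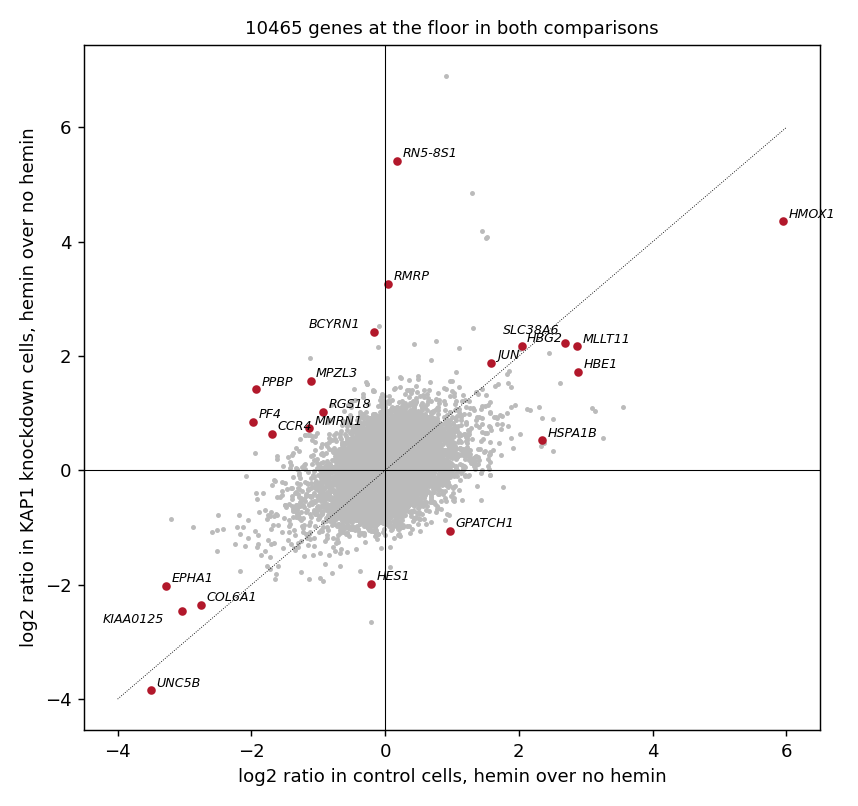
Each point is 1 of the 10465 genes at the floor in both comparisons, with the log2 ratio of hemin over no hemin in control cells on the x axis and in KAP1 knockdown cells on the y axis; the dotted line marks equal ratios. HMOX1, MLLT11 and HBE1 lie at the upper right below the line, UNC5B, EPHA1 and COL6A1 at the lower left, PF4 and PPBP at the upper left, and RN5-8S1 and RMRP near 0 on the x axis.

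The 2 comparisons share no library, so their overlap could be counted. Among the 10465 genes at the floor in both, those at least 2-fold higher in both numbered 60, which is 27.0% of the 222 higher in knockdown cells and 24.2% of the 248 higher in control cells. For the lower genes, 57 were shared, 40.4% of the 141 in knockdown cells and 23.2% of the 246 in control cells. Beside these shares, 2.6% of all genes at the floor in control cells were at least 2-fold higher and 2.59% lower. In knockdown cells 2.31% of all genes at the floor were higher and 1.71% lower. Going opposite ways by at least 1.5-fold on each side were 43 of the 10465 genes. Of the 43, 28 were higher with hemin in knockdown cells and 15 lower. RGS18, a regulator of G protein signalling in platelets, was at 68.8 and 140 scaled TPM in knockdown cells and at 142 and 74.3 in control cells, log2 ratios of 1.02 and -0.93. CCR4, a chemokine receptor gene, had 0.64 and -1.69, and GPATCH1, a splicing-associated protein gene, had -1.06 and 0.98.

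The protein-coding genes furthest up also included transporters and regulators. The 20 furthest in each direction were listed after the values had been seen, since most of the 15 highest transcripts overall were not protein-coding. SLC38A6, a member of the amino acid transporter family SLC38, was at 3.64 and 18.8 scaled TPM, a log2 ratio of 2.22, and MLLT11, a small protein gene first found as a leukaemia fusion partner, at 32.0 and 146. JUN, the AP-1 transcription factor, was at 11.2 and 42.4, a log2 ratio of 1.88, one of 2 higher on a list of 18 AP-1 and immediate early genes, of which 5 were lower and 11 within 1.5-fold, with a median of -0.29. EGR1, the early growth response factor, had -1.20. CDKN1A, the cell cycle inhibitor p21, was at 4.46 and 15.9, a log2 ratio of 1.72. The immune checkpoint ligand gene CD274 had 1.62 and the complement receptor gene CR1 1.61, against 0.24 and 0.02 in control cells.

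The genes furthest down hold receptors and adhesion molecules. UNC5B (NM_170744) was at 30.5 scaled TPM without and 1.66 with hemin, a log2 ratio of -3.85 with a counting interval of -4.44 to -3.98. The ratio carries a pseudocount of 0.5 and the interval does not, which is why the ratio of this low gene lies outside it. In control cells UNC5B went from 49.8 to 3.94, a log2 ratio of -3.50. Of 23 axon guidance, Eph and ephrin genes, 2 were higher by 1.5-fold or more and 11 lower (47.8%, beside 10.7% of all genes), with a median log2 ratio of -0.51; in control cells 2 of 22 were higher and 6 lower, with a median of -0.17. With no floor on low values the knockdown median was -0.32. EPHA1, a receptor tyrosine kinase for ephrins, was at 11.9 and 2.56, a log2 ratio of -2.02, NTN4, a netrin, had -1.70, and EFNB1, a membrane-bound ephrin, had -1.49. SEMA3C, a secreted semaphorin, had 1.07.

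Of 30 adhesion, collagen and chemokine receptor genes, 5 were higher (16.7%, beside 12.1% of all genes) and 9 lower (30%, beside 10.7%). Their median log2 ratio of -0.05 lay near that of all genes, so the list was not lower as a whole. COL6A1, a collagen VI chain, was at 23.8 and 4.27 scaled TPM, a log2 ratio of -2.35, and CXCR4, the chemokine receptor that holds progenitors in bone marrow, at 28.0 and 8.50, a log2 ratio of -1.66. In control cells COL6A1 had -2.75 and CXCR4 -1.76. The leukocyte integrin chain ITGB2 was already low in knockdown cells, at 8.01 and 1.81, a log2 ratio of -1.88. On the other side CD47, the signal that protects cells from being engulfed, had 1.01. SHISA3, a Wnt and FGF antagonist gene, was at 14.1 and 0.483 scaled TPM in knockdown cells, a log2 ratio of -3.89, and near 0 in both control libraries, at 0.223 and 0.0278.

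Among the genes that were lower were single targets of Notch, BMP and Wnt signalling. No list of Notch targets was examined, and a change in these pathways was not tested. HES1, a Notch target, was at 52.1 and 12.8 scaled TPM in knockdown cells, a log2 ratio of -1.98, and at 71.5 and 61.6 in control cells, a log2 ratio of -0.21. ID3, a BMP target that blocks basic helix-loop-helix factors, was at 21.4 and 5.54 in knockdown cells, a log2 ratio of -1.86, and at 0.827 and 1.41 in control cells. Of 19 TGF-beta, BMP and ID genes 2 were higher and 5 lower, with a median of -0.05, near that of all genes. The receptor gene TGFBR1 was among the higher ones, at 0.88. Of 11 Wnt target and feedback genes 1 was higher and 5 lower, with a median of -0.23; NKD1, a feedback inhibitor, had -1.49. CCND1, the G1 cyclin D1 and a Wnt target, was at 30.1 and 8.20, a log2 ratio of -1.81, and in control cells it had -1.64.

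Lists of cell division genes had medians nearer 0 in knockdown cells than in control cells, though single genes such as CDK1 and MCM7 did not. Of 33 mitosis genes in knockdown cells 4 were higher by 1.5-fold or more (12.1%, as for all genes) and 1 lower (3.03%, beside 10.7%). Their median log2 ratio was -0.02. In control cells 0 of 32 were higher and 6 lower, with a median of -0.39, beside 9.24% and 8.21% of all genes. CDK1, the mitotic kinase, was at 41.7 and 81.8 scaled TPM in knockdown cells, a log2 ratio of 0.97, and had a log2 ratio of -0.52 in control cells. Of 38 DNA replication genes 0 were higher and 4 lower in knockdown cells (10.5%, beside 10.7% of all genes), with a median of -0.15. In control cells 0 of 37 were higher and 14 lower, with a median of -0.45. MCM7, a helicase subunit, had -1.03 in knockdown cells and -0.48 in control cells, while RRM2, which makes deoxynucleotides, had 0.04 there and -1.02 in control cells. The difference between the 2 kinds of cell was not tested.

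Proteasome and heat shock genes were higher with hemin for fewer members in knockdown cells than in control cells, a difference that was not tested. Of 37 proteasome subunits 6 were at least 1.5-fold higher (16.2%, beside 12.1% of all genes) and 0 lower in knockdown cells, with a median log2 ratio of 0.28. In control cells 28 of 37 were higher (beside 9.24% of all genes) and 0 lower, with a median of 0.92. PSMB1, a core particle subunit, had 1.16 and 0.90, and PSMC2, an ATPase of the regulatory particle, was at 77.0 and 93.3 scaled TPM in knockdown cells and at 51.8 and 153 in control cells. HSPA1B, an inducible HSP70 gene that is near-identical to HSPA1A, was at 145 and 209 in knockdown cells, a log2 ratio of 0.52, and at 96.1 and 490 in control cells, a log2 ratio of 2.34. Of 23 cytosolic heat shock genes 2 were higher (8.70%) and 0 lower in knockdown cells, against 9 of 26 higher and 0 lower in control cells. The medians were 0.06 and -0.02.

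The series title names mitophagy in red cell formation, and these genes were examined as lists. Of 31 autophagosome genes 8 were higher (25.8%, beside 12.1% of all genes) and 0 lower in knockdown cells, with a median log2 ratio of 0.26. In control cells 3 of 30 were higher (beside 9.24% of all genes), with a median of 0.17. GABARAPL1, an ATG8 family member, was at 27.3 and 59.2 scaled TPM, a log2 ratio of 1.10, against 2.30 in control cells. ATG5, part of the conjugation machinery, had 0.98 and the LC3 gene MAP1LC3B 0.61. Of 22 mitophagy genes 1 was higher and 1 lower (4.55% each), with a median of 0.19. TBK1, a kinase that acts on mitophagy receptors, had 0.69 and the receptor gene BNIP3 had -0.79. BNIP3L, the receptor for clearing mitochondria from maturing red cells, was at 54.5 and 80.7 scaled TPM, a log2 ratio of 0.56, and in control cells it had 0.62. BNIP3L, ATG12 and BECN1 are rows of whole numbers, so they have no counting interval. Of 38 lysosome genes 7 were higher (18.4%) and 2 lower (5.26%, beside 10.7% of all genes), with a median of 0.30, led by the proton pump subunit ATP6V1A at 1.11.

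Part of the glycolysis genes were lower with hemin, while cholesterol synthesis genes lay on both sides. Of 23 glycolysis genes 0 were higher and 9 lower (39.1%, beside 10.7% of all genes) in knockdown cells, with a median log2 ratio of -0.42. In control cells 4 were higher and 8 lower, with a median of -0.33. HK2, a hexokinase, was at 82.7 and 42.3 scaled TPM, a log2 ratio of -0.96, and SLC16A3, a lactate exporter, at 396 and 200.1, a log2 ratio of -0.98. Of 24 cholesterol synthesis genes 5 were higher and 2 lower in knockdown cells and 0 were higher and 3 lower in control cells. MSMO1, a methylsterol oxidase gene, was at 31.5 and 86.8 in knockdown cells, a log2 ratio of 1.45, and had 0.14 in control cells; HMGCS1, an early enzyme of the pathway, had 1.24 and 0.10. Of 26 ATF4 targets, genes of amino acid supply and stress, 2 were higher and 6 lower, with a median of -0.33.

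Interferon response genes were higher for 10 of 30 (33.3%, beside 12.1% of all genes) and lower for 0 in knockdown cells, with a median log2 ratio of 0.19. In control cells 3 were higher and 1 lower, with a median of 0.21, beside 9.24% and 8.21% of all genes. RSAD2, which encodes the antiviral enzyme viperin, was at 5.36 and 18.0 scaled TPM, a log2 ratio of 1.66, and had 0.49 in control cells. IFI44, an interferon-induced gene, had 1.06 in knockdown cells and 2.17 in control cells. Mast cell genes, of which 3 of 6 were higher, included CPA3, a mast cell protease, with 0.88. Among 9 monocyte and neutrophil genes 2 were higher and 4 lower. The stem cell factor receptor gene KIT was at 13.8 and 29.6, a log2 ratio of 1.08, and at 32.7 and 145 in control cells, a log2 ratio of 2.12.

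**Figure D4:**
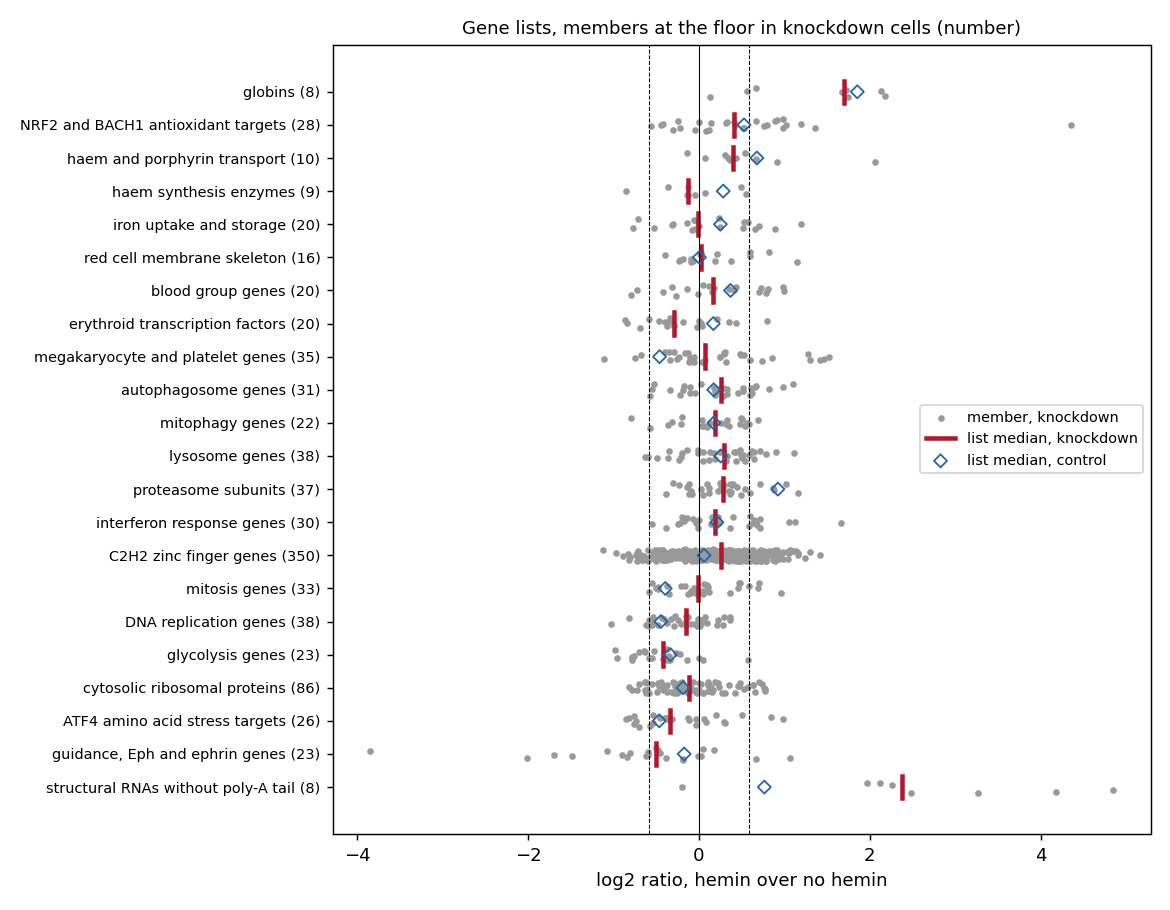
Log2 ratio of hemin over no hemin for the members of 22 gene lists that reached the floor in KAP1 knockdown cells, with 1 grey point per gene, the list median in knockdown cells as a red bar and in control cells as a blue diamond, and dashed lines at 1.5-fold. Globins and structural RNAs have the highest medians, at 1.70 and 2.37, and the medians of the megakaryocyte, mitosis and proteasome lists differ between the 2 kinds of cell.

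The highest transcripts of all were short structural RNAs that carry no poly-A tail. RN5-8S1, the 5.8S ribosomal RNA, was at 80.8 scaled TPM without and 3476 with hemin in knockdown cells, a log2 ratio of 5.42, and at 453 and 512 in control cells. The U2 spliceosomal gene RNU2-2 had 1 read without and 449 with hemin, a log2 ratio of 6.90 with a counting interval of 5.49 to 13.28. RMRP, the RNA of RNase MRP, went from 2.46 to 28.0, a log2 ratio of 3.27, and RN7SL1, the signal recognition particle RNA, from 285 to 1598, a log2 ratio of 2.48. RMRP and RN7SL1 are on the list of structural RNAs, and RN5-8S1 and RNU2-2 are not. Of the 8 members of that list at the floor in knockdown cells, 7 were at least 1.5-fold higher and 0 lower, with a median of 2.37. In control cells 4 of 7 were higher and 1 lower, with a median of 0.77. Copies of U3 (SNORD3A and SNORD3C) are near-identical and cannot be counted apart.

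Such RNAs are left in varying amounts by preparations that select poly-A tails, as the kit named in the labels does. Ribosomal RNA took 0.790% of the recovered reads without and 1.89% with hemin in knockdown cells, and 0.916% and 1.66% in control cells. Leaving out every transcript that is not protein-coding gave 225 genes at least 2-fold higher and 167 lower. Of the 472 transcripts of other kinds at the floor, 36 were higher (7.63%) and 17 lower (3.60%). With 1 library a side, the preparation and the cells cannot be told apart here.

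In the knockdown pair the ratio also followed transcript length, level and base content. Over 4 equal groups of protein-coding genes by transcript length, the median log2 ratio in knockdown cells was -0.12 for 137 to 1728 bases, -0.05 to 2728 bases, 0.03 to 4249 bases and 0.14 for the longest. In control cells the 4 medians lay between -0.01 and 0.01. By GC content of the upstream 250 bases the knockdown medians were 0.11, 0.02, -0.04 and -0.10 from the lowest to the highest of 4 groups, and the control medians lay between -0.03 and 0.03. In knockdown cells genes at a mean level under 20 scaled TPM had a median of 0.13, those at 100 or more one of -0.17. The part of these trends in the results for single lists was not tested. With the length trend removed, the medians of the 48 lists moved by at most 0.16, the shift of the guidance, Eph and ephrin genes, whose median became lower.

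**Figure D5:**
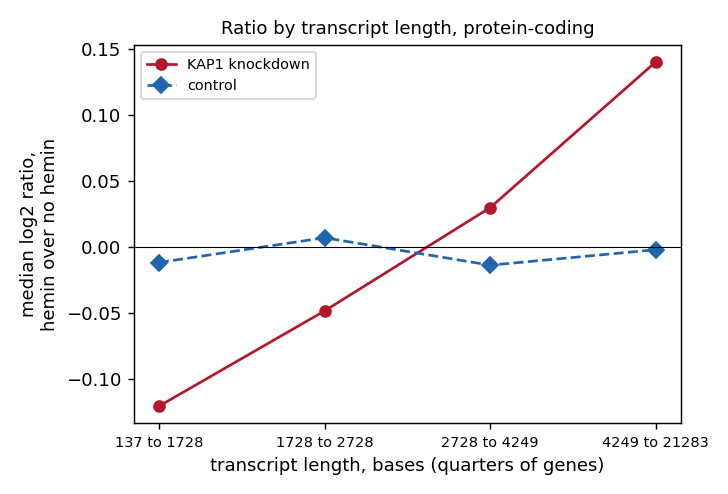
Median log2 ratio of hemin over no hemin in 4 equal groups of protein-coding genes by transcript length in bases, with circles for KAP1 knockdown cells and diamonds for control cells. The knockdown medians climb from -0.12 to 0.14 with length, and the control medians stay between -0.01 and 0.01.

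C2H2 zinc finger genes, the family through which KAP1 is brought to DNA, had 70 of 350 members at least 1.5-fold higher with hemin (20%, beside 12.1% of all genes) and 22 lower in knockdown cells, and 24 of 358 higher and 9 lower in control cells. Their median log2 ratio was 0.26 in knockdown cells, and 0.22 with the length trend removed, against 0.06 in control cells. The 350 genes summed to only 7138 scaled TPM in knockdown cells without hemin, so many were low. Of all 4023 genes at a mean level under 20 scaled TPM in knockdown cells, 729 were at least 1.5-fold higher and 404 lower. The median of those genes was 0.13, and the part of level in the zinc finger result was not tested. ZNF429 was at 2.34 and 7.07 scaled TPM, a log2 ratio of 1.41, and ZNF117 at 9 and 22.9, a log2 ratio of 1.30. Cytosolic ribosomal protein genes are short and abundant. Of 86, 8 were higher and 11 lower, with a median of -0.11 that became 0.02 once the length trend was removed. They spread widely in the knockdown pair, from RPL8 at -0.81 to RPS12 at 0.77, and in control cells 1 of 86 was at least 1.5-fold higher and 0 lower. KAP1 partners, such as the DNA methyltransferase gene DNMT3B at -0.78 and UHRF1, the partner of the maintenance methyltransferase, at -0.83, had 2 of 31 higher and 5 lower.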

How the data were processed

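RNA of 4 HEL libraries was measured by RNA-seq from 250 ng of total RNA each with a TruSeq RNA v2 kit, per the labels' protocols. The authors deposited RPKM values for RefSeq transcripts, per the file headers. The submitters' processing notes name Bowtie and hg19 without version or role, and further steps were not given in the sources used here. There were 24538 rows and no value of 0, so genes without reads in a library may be missing. Dividing the deposited RPKM by the worth of a single read gave whole reads for 24533 of 24533 rows outside 5 rows of whole numbers, within 0.0002 reads plus a relative tolerance of 4e-09.

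Reads per transcript length were scaled with trimmed means of log ratios (trims 0.3 and 0.05) to scaled TPM. For ratios 0.5 was added before taking log2, so differences of low genes are understated. Genes entered at 5 scaled TPM in the higher library. Genes were counted at 2-fold, members of 48 lists at 1.5-fold. Median counting intervals were 0.23 wide on the log2 scale in the knockdown pair. Interval and scaling code was tested on simulated data. Python 3.11.15, numpy 2.4.6, pandas 2.3.3 and scipy 1.17.1 were used.

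The members and lists were chosen with earlier results of these data known, so no list has a test. The text names the 4 comparison markers, the 15 genes furthest in each direction whose interval excludes a ratio of 1, up to 4 members per list with the largest ratio, all globins and haem synthesis enzymes, 10 genes going opposite ways in knockdown and control cells, TRIM28 and the cell type markers. The 20 protein-coding genes furthest in each direction, and a few further list members named as a contrast, were chosen after their values were seen. A few genes that these rules name are not reported here. Alternatives covered scaling, floor, pseudocount, transcript choice, non-coding transcripts and length. The ChIP-seq samples were not analysed here.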

Additional observations from a re-analysis of the deposited data

Results flagged for a closer look

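The hemin ratio went opposite ways in knockdown and control cells, by at least 1.5-fold in each, for 14 genes named by the rules of this work. With 1 library per group none of these differences was tested. Values are the log2 ratio in knockdown cells minus that in control cells. The platelet chemokine genes PPBP and PF4 had differences of 3.35 and 2.82, the platelet granule gene MMRN1 1.88 and the G protein regulator gene RGS18 1.95. The adult globin gene HBB had 1.68, the eosinophil granule gene PRG2, which was far lower in both knockdown libraries than in the control libraries, 1.65, and the asparagine synthetase gene ASNS 1.46. The receptor genes CCR4 and TGFBR1 had 2.33 and 1.71, the growth factor gene GDF3 1.94, the sodium channel gene SCN9A 1.82, MPZL3 2.68 and the small nucleolar RNA SNORA73B 3.10. GPATCH1 was the one of these that was lower with hemin in knockdown cells, at -2.04.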

How the results depend on the processing

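All 102 named genes past 2-fold kept their sign in knockdown cells under every alternative that included them. With equal medians 98 stayed past 2-fold, and with unscaled deposited values 76. Most of these genes were named for the size of their ratio, and a change of floor does not alter a ratio. The kept sign therefore says little about how stable other genes are. The counts of genes at least 2-fold higher and lower moved more. With unscaled deposited values, which carry depth and shift the median of all genes by 0.95 on the log2 scale, they were 5038 and 12 in knockdown cells and 456 higher in control cells. With no floor they were 389 and 298 in knockdown cells. With a floor of 20 they were 114 and 84 in knockdown cells and 176 and 169 in control cells. Asking that the whole counting interval lie beyond 2-fold gave 140 and 101 in knockdown cells and 185 higher in control cells. That rule, the restriction to protein-coding transcripts and the removal of the length trend were added after the data had been seen. Of the list medians past 1.5-fold in knockdown cells, 1 changed sign: the B and T lymphocyte list had -0.72, and 0.19 with unscaled deposited values. No paired analysis was possible because each group was 1 library and no replicate number is shared, and for the same reason no replicate could be left out. Depth limits the low genes most: the shallower knockdown library held 1 read of RNU2-2 and 2 of SNORD22.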
